A study of Mus musculus with 16 samples.

Results

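The loops at 10 genes are described here, as listed at a bin size of 10 kb in the whole newborn mouse cochlea. The group was named for transcription factors of hair cells, the sensory cells of the inner ear. Expression of each gene in these cells was not examined. The genes were Atoh1, Pou4f3, Gfi1, Barhl1, Lhx3, Insm1, Ikzf2, Rfx3, Tbx2 and Prdm16, 10 of the 21755 protein-coding genes on chromosomes 1 to 19 and X. For each gene the nearest loop anchors on both sides of its start site were taken, with every loop that had an anchor within 100 kb of the start site and every loop that spanned the gene body. The 10 genes accounted for 19 of the 6798 loops in the list.

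The study used cochleae of C57Bl/6 mice, labelled P0 for each sample and P0/1 in the description of the design, with no treatment or mutation. The Micro-C group held 4 libraries of about 600000 cells each, and the authors merged them before loops were called, so each loop had 1 FDR and no spread over replicates, and no test between conditions could be made. In Micro-C, fixed chromatin is digested to nucleosomes by micrococcal nuclease and ends that lie close together are joined, so a loop is a pair of distant bins, its anchors, joined more often than their surroundings. Another 12 libraries (2 of ATAC-seq, 4 of CUT&RUN for CTCF, 3 for H3K4me1 and 3 for H3K27ac) were not analysed here. The read depth behind a loop was not in the list. Hair cells are a minority of the cells in the whole cochlea, and a loop found in few cells and a weak loop in many cells cannot be told apart in such a sample.

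Hair cells arise when Atoh1 is switched on in sensory progenitors, and later factors such as Pou4f3 and Gfi1 keep the cells alive and let them mature. Insm1 and Ikzf2 are known for their part in outer hair cells, the amplifiers of the cochlea, and Tbx2 for its part in inner hair cells, which pass sound signals to the nerve. Many loops of mammalian chromosomes end at sites bound by CTCF, where cohesin stops as it extrudes the strand, and CTCF sites at the ends of such loops usually point toward each other.

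Of the 10 genes, 9 had an anchor within 100 kb of the start site, against 62.7% of all protein-coding genes. The start site lay inside an anchor bin in 3 of the 10 genes (Insm1, Tbx2 and Prdm16), against 7.1% of all genes. A loop spanned the gene body in 8 of the 10, against 28.1%. Prdm16 and Tbx2 were the other two. The median distance from the start site to the nearest anchor was 16.2 kb in the 10 genes and 56.6 kb in all genes, whose quartiles were 17.7 and 193 kb. These shares and medians describe genes that were chosen by name, with earlier results of these data known, and they were not tested. The list held no loop shorter than 60 kb, so contacts between a gene and closer elements could not appear in it.

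**Figure D1:**
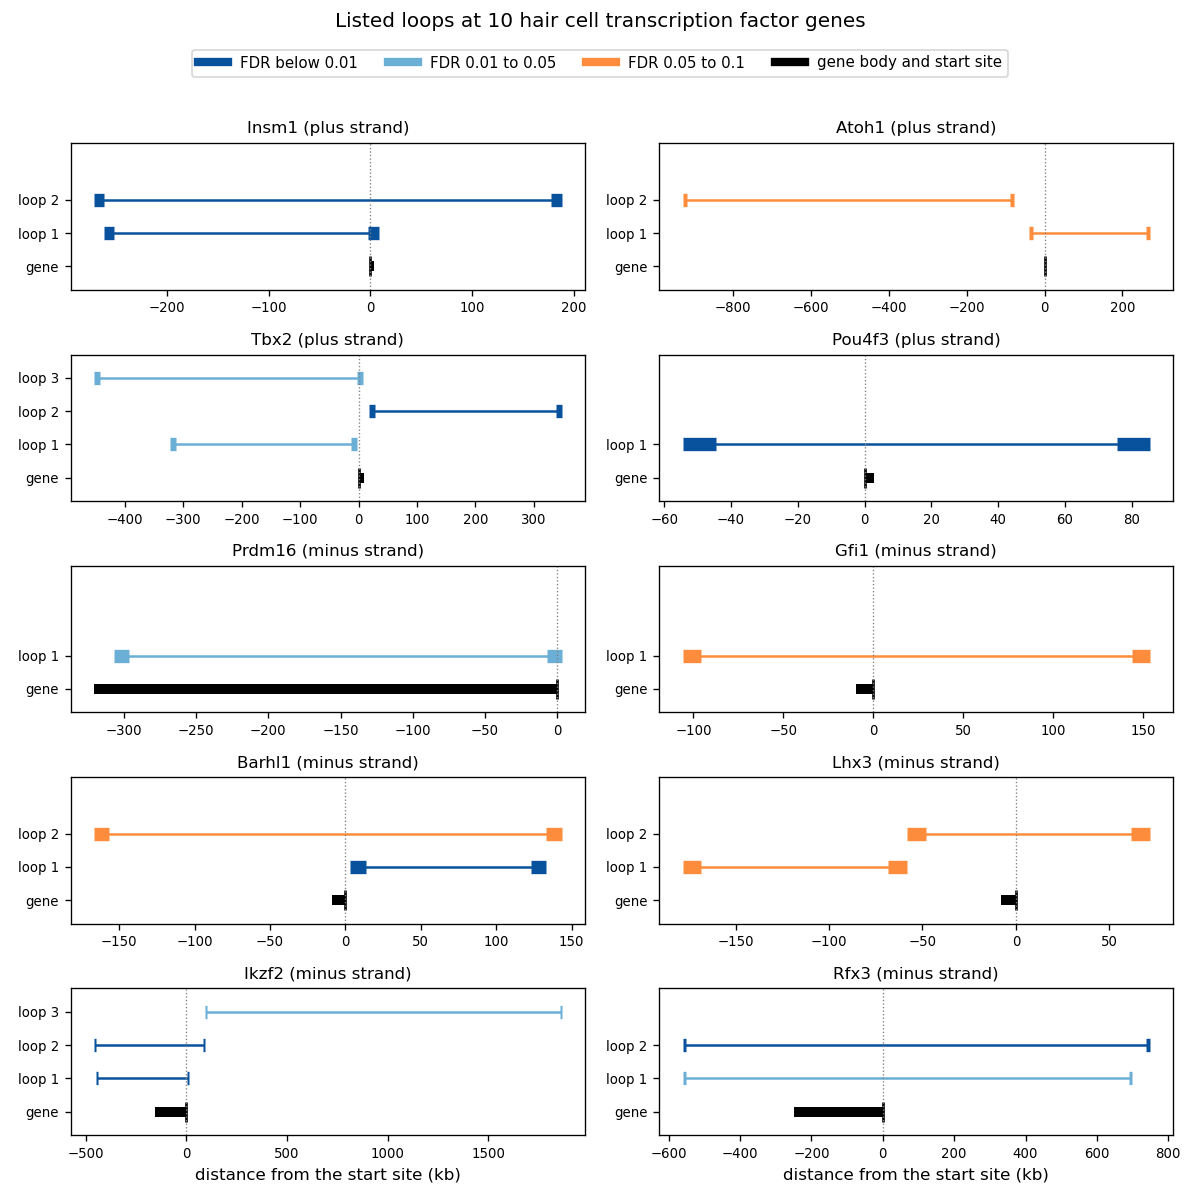
Loops of each gene, drawn by distance from the gene's start site in kb (x axis, left to right along the chromosome, with its own range in each panel). Thick ends are the 10 kb anchor bins, colours give the FDR class, and the black bar is the gene body with a tick at its start site. The start site lies in an anchor in the panels of Insm1, Tbx2 and Prdm16, and between the anchors of 1 loop in those of Atoh1, Pou4f3, Gfi1 and Lhx3.

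A 14-base CTCF consensus, searched on both strands with at most 1 mismatch, was found in 20 of the 37 distinct anchor bins of the 19 loops (54.1%). The share over all 11828 anchor bins of the list was 48.4%, and that over all 255803 bins of the genome was 21.4%. In 6 of the 19 loops both anchors held matches, and those with the fewest mismatches in each bin pointed one way. Matches with more mismatches in the same bin were not used for the direction. In 4 of these 6 the matches faced each other, in 2 both pointed the same way and in 0 they pointed apart. Over all loops 1502 had such matches, of which 68.3% faced each other and 3.13% pointed apart. The 4 facing pairs are shown because they mark the ends of loops at Barhl1, Lhx3, Rfx3 and Tbx2. Each is a stretch of mm10 read 5′ to 3′ on the strand of the match, with the match in capitals and 8 bases on either side. In the loops below, the first anchor carried the match on the plus strand and the second on the minus strand.
Barhl1 loop of 300 kb, first anchor, chr2:28755639-28755668: aaaattcgCCAGTAGGTGGCAGtgcataat
Barhl1 loop of 300 kb, second anchor, chr2:29052992-29053021: tacaagtgGCACCAGGGGGCAGtcttttcc
Lhx3 loop of 120 kb, first anchor, chr2:26153471-26153500: aggctcagCCACCAGGAGGCGCatctggtc
Lhx3 loop of 120 kb, second anchor, chr2:26273762-26273791: catgatggCCAGTAGGGTGCAGcattgtgt
Rfx3 loop of 1300 kb, first anchor, chr19:27450637-27450666: caccaatgCCAGCAGGGGGCACtagcaagc
Rfx3 loop of 1300 kb, second anchor, chr19:28759136-28759165: gtggtccaCCACTAGAGGGAGCtggtggcc
Tbx2 loop of 310 kb, first anchor, chr11:85518190-85518219: acatgctaCCTCTAGAGGGCAGtgtgctct
Tbx2 loop of 310 kb, second anchor, chr11:85823375-85823404: ccatcctaGCACTAGGGGGCGCtgacagca

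The first anchors of the Barhl1 and Rfx3 loops matched with 0 mismatches and the other 6 sequences with 1. Where a bin held more than 1 match of equal quality, the leftmost is shown: the second Barhl1 anchor held 3 such matches, and the first Lhx3 anchor held 2. None of the 3 anchor bins that hold the start sites of Insm1, Tbx2 and Prdm16 had a match. Over all 1409 anchor bins with a protein-coding start site, 51.1% had one. A match is a run of letters and does not show that CTCF was bound.

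Atoh1, the basic helix-loop-helix factor that starts hair cell formation, is a gene of 2.12 kb on the plus strand of chromosome 6 (64729125 to 64731245, ENSMUSG00000073043.5). It lay between the anchors of a 300 kb loop, 29.1 kb from the left anchor and 261 kb from the right one. The right anchor (64990001 to 65000000) held the start of the noncoding gene Gm15534. The FDR of the loop was 0.0619, and 84.5% of all loops had a lower one. A further loop of 840 kb ran away from Atoh1 to the left, with its nearer anchor 79.1 kb from the Atoh1 start site. Its FDR was 0.0526. Both loops thus stood among the weaker calls of the list. No anchor was listed between Atoh1 and the right end of the 300 kb loop, a stretch that includes the well-known enhancer just downstream of the gene. With no loop shorter than 60 kb in the list, a loop from Atoh1 to that enhancer could not appear in it. The paper reports contacts of Atoh1 with its known downstream enhancers in these Micro-C data, at smaller bins and with low contact counts.

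Pou4f3, a POU homeodomain factor needed for hair cells to mature and survive, is 2.71 kb long on the plus strand of chromosome 18 (42394539 to 42397249, ENSMUSG00000024497.4). It was the only protein-coding gene inside a 130 kb loop whose anchors lay 44.5 kb to the left and 75.5 kb to the right of its start site. The left anchor held the last exon of the neighbouring gene Rbm27, exon 21 of 21, and the right anchor held no annotated gene. A CTCF consensus match was found in the right anchor only, on the plus strand, pointing out of the loop. The FDR was 0.000472, lower than at any other of the 10 genes but Insm1, and 16.4% of all loops had a lower one.

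Gfi1, a zinc finger repressor that acts downstream of Pou4f3 in hair cells, is 9.38 kb long on the minus strand of chromosome 5 (107716657 to 107726036, ENSMUSG00000029275.18). A loop of 250 kb spanned it, with anchors 96.0 kb to the left and 144 kb to the right of the start site. The left anchor was thus just inside the 100 kb window, and no other anchor was nearer. The left anchor held exons 8 to 10 of Rpap2, and the right anchor held the start site of Evi5. Here too a CTCF consensus match was found in the right anchor only, on the plus strand, pointing out of the loop. The loop touched 4 protein-coding genes, Rpap2, Gfi1, Evi5 and Ube2d2b. Its FDR of 0.0706 was higher than that of 88.5% of all loops.

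Barhl1, a homeobox factor that maintains hair cells, is 8.99 kb long on the minus strand of chromosome 2 (28907679 to 28916668, ENSMUSG00000026805.14). An anchor lay 3.33 kb upstream of its start site, and only 10.7% of all genes had a nearer one. The anchor (28920001 to 28930000) held the last exon of Cfap77, exon 6 of 6. Its loop of 120 kb ran away from Barhl1 across Cfap77 to a bin in the first intron of that gene, with an FDR of 0.00126. Another one, of 300 kb, ended in the neighbouring bin, which held the Cfap77 start site. That loop spanned Barhl1, reached 157 kb to its left into exon 11 of Ak8 and touched 5 protein-coding genes, Ak8, Gtf3c4, Ddx31, Barhl1 and Cfap77. Its FDR was 0.0502. The CTCF consensus was found at both ends of the 300 kb loop and at neither end of the 120 kb loop. The paper reports an interaction between regions with the promoters of Barhl1 and Cfap77 in these Micro-C data, at smaller bins. The 120 kb loop joined bins near both start sites, 3.33 kb from that of Barhl1 and 5066 bases from that of Cfap77. Whether it is the same contact was not tested. The 250 bases before the Barhl1 start site in RefSeq (GRCm38.p6, minus strand, chr2:28916669-28916918) are shown because of the nearby anchor, with a match to an E-box, the kind of site that Atoh1 and its partners bind, in capitals.
Barhl1 promoter: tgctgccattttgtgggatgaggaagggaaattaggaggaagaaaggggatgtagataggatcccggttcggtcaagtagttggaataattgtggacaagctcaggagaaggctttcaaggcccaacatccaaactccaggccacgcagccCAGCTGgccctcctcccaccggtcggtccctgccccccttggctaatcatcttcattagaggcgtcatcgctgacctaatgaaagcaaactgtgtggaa

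The E-box letters searched were CAGCTG, which reads the same on both strands, and CAGATG with its reverse complement CATCTG. Of 32851 RefSeq promoters, 25.5% held at least 1 of them in the same 250 bases, so the match at Barhl1 is a description of this window. RefSeq promoters of 6 of the 10 genes were in the table used (Atoh1, Gfi1, Barhl1, Lhx3, Rfx3 and Prdm16), with 9 entries in all, since Gfi1, Barhl1 and Lhx3 have 2 start sites each there. A match was found in 3 of the 9 entries, both of Barhl1 and 1 of Lhx3.

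Lhx3, a LIM homeodomain factor of hair cells and of the pituitary, is 8.08 kb long on the minus strand of the same chromosome (26200212 to 26208289, ENSMUSG00000026934.15). It lay inside a 120 kb loop whose anchors were 48.3 kb to the left and 61.7 kb to the right of its start site. The loop touched Lhx3, Qsox2 and Ccdc187, and the right anchor held exons 7 to 11 of Ccdc187. Its FDR was 0.0862, the highest of the 19 loops, and 95.3% of all loops had a lower one. A second loop, of 110 kb with an FDR of 0.0556, ended in the bin next to the left anchor and ran the other way across Nacc2. The CTCF consensus was on the plus strand in the bin of the loop over Lhx3 and on the minus strand in the bin of the loop over Nacc2, so the matches of the neighbouring bins pointed away from each other, each into its own loop. The match of the Nacc2 loop had 0 mismatches and is given for comparison with the Lhx3 sequences above.
Nacc2 loop of 110 kb, second anchor, minus strand, chr2:26142144-26142173: gcacagtcCCAGCAGGTGGCGCcaggccac

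Insm1, a zinc finger factor that keeps outer hair cells from taking on features of inner hair cells, is a gene of 3.1 kb with 1 exon on the plus strand of chromosome 2 (146221921 to 146225020, ENSMUSG00000068154.5). The whole gene lay inside an anchor bin (146220001 to 146230000), the right end of a 260 kb loop with an FDR of 0.00934. The left end of that loop held exon 7 of Cfap61. A larger loop of 450 kb spanned Insm1 from the bin next to that left end, which held exons 5 and 6 of Cfap61, to exons 21 and 22 of Ralgapa2, 178 kb to the right of the Insm1 start site. Its FDR was 6.44e-05, the lowest of the 19 loops, and 5.68% of all loops had a lower one. The larger loop had a CTCF consensus match in each anchor, the best ones both on the plus strand, and the smaller loop had none.

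Ikzf2 encodes Helios, a zinc finger factor that drives the maturation of outer hair cells. The gene is 156 kb long on the minus strand of chromosome 1 (69531214 to 69687245, ENSMUSG00000025997.13). An anchor lay 2.76 kb upstream of its start site, and 10.1% of all genes had a nearer one. From there a 450 kb loop with an FDR of 0.0022 reached over the whole gene to a bin 437 kb to the left. A second loop, of 540 kb with an FDR of 0.00768, ran from the next bin on the left to one 82.8 kb to the right of the start site. Both loops held Ikzf2 as their only protein-coding gene. The left anchors of the 2 loops, which neighbour each other, each had a CTCF consensus match on the plus strand that pointed toward Ikzf2, shown here.
Ikzf2 loop of 540 kb, first anchor, plus strand, chr1:69239576-69239605: cttactctCCAGTTGGTGGCGCtgtctgga
Ikzf2 loop of 450 kb, first anchor, plus strand, chr1:69241900-69241929: atctctgtCCACAAGGTGGCGGaagcgcgc

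The last Ikzf2 loop began in the bin next to the right anchor of the 540 kb loop, 92.8 kb from the start site, and ran away from the gene for 1760 kb with an FDR of 0.0472. It held Spag16, Vwc2l, Bard1 and Abca12, and 99.4% of all loops were shorter. The 2 loops over Ikzf2 lay mostly to its left, and the long loop on its right did not include it.

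Tbx2, a T-box factor needed for the inner hair cell fate, is 9.4 kb long on the plus strand of chromosome 11 (85832551 to 85841948, ENSMUSG00000000093.6). Its start site and exons 1 to 6 of 7 lay in an anchor bin (85830001 to 85840000), which also held the start of the noncoding gene 2610027K06Rik. The loop from that bin ran 450 kb to the left, to an intron of Bcas3, with an FDR of 0.0113. The neighbouring bin, 2.55 kb upstream of the start site, held the last exons of Bcas3, exons 27 and 28 of 28, and was the right end of a 310 kb loop within Bcas3 with an FDR of 0.0123. A further anchor, 17.4 kb downstream, began a 320 kb loop that ran to the right over the related gene Tbx4 into an intron of Brip1, with an FDR of 0.00327. The distances to the nearest anchors on both sides of the Tbx2 start site, beside its own bin, thus had a small sum, and only 0.621% of all genes had a smaller one. That sum rests on the 310 kb loop: the nearest anchor on the left was 443 kb away with loops of the smallest detection scale only and 1020 kb away with loops of FDR below 0.01. The 3 loops pointed away from Tbx2 to both sides and no loop spanned it. The CTCF consensus in the bin 2.55 kb upstream was on the minus strand, pointing to the left into its loop. In the rightward loop both matches were on the minus strand.

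Prdm16, a large zinc finger factor of the PR domain family known from brown fat and craniofacial development, is 321 kb long on the minus strand of chromosome 4 (154316125 to 154636873, ENSMUSG00000039410.16). Its start site lay in the right anchor of a 300 kb loop with an FDR of 0.0176. The left anchor held exons 10 to 12 of the 17 exons of Prdm16 and the start site of B230104I21Rik, so the loop joined the beginning of the gene to its later exons and covered most of the gene body. The start of another annotated transcript of Prdm16 also lay in this left anchor, so the loop had Prdm16 transcript starts at both ends. A loop of 470 kb with an FDR of 0.0264 began in the next bin to the left, which held exons 13 to 17, and ended 153 kb upstream of the start site. It crossed the start site without holding the whole gene between its anchors, so it was not counted as spanning Prdm16. The left anchor of the 300 kb loop had a CTCF consensus match on the plus strand. The 250 bases before the Prdm16 start site lay wholly inside the right anchor and are the stretch of a start-site anchor that RefSeq gives here (GRCm38.p6, minus strand, chr4:154636874-154637123). They held none of the 3 E-box words, and 62.4% of their bases were G or C against a median of 52.4% over all RefSeq promoters. The other RefSeq promoters searched at these genes, none of them in an anchor bin, were also above that median. They ranged from 52.8% at Barhl1 to 72.8% at Rfx3.
Prdm16 promoter: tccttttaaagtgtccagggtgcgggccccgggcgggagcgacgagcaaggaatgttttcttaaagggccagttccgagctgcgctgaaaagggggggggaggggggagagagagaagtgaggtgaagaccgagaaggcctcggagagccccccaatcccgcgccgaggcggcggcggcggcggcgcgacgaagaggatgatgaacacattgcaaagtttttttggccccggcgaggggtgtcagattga

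Rfx3, a winged-helix factor known for the control of cilia genes, is 249 kb long on the minus strand of chromosome 19 (27761721 to 28011166, ENSMUSG00000040929.17). It was the only one of the 10 genes with no anchor within 100 kb: the nearest lay 139 kb upstream and its loop of 580 kb ran away from the gene, with an FDR of 0.00725. Of all genes, 69.3% had a nearer anchor. Rfx3 and its neighbour Glis3 lay together inside 2 long loops of 1250 and 1300 kb that shared the left anchor, 551 kb from the Rfx3 start site. Their FDRs were 0.0433 and 0.004. The right anchors were 689 and 739 kb from the start site, beyond Glis3. Of all loops, 97.0% were shorter than the first and 97.3% shorter than the second. A lower FDR was given to 74.9% of the 338 loops within 20% of 1250 kb and to 21.7% of the 304 loops within 20% of 1300 kb.

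**Figure D2:**
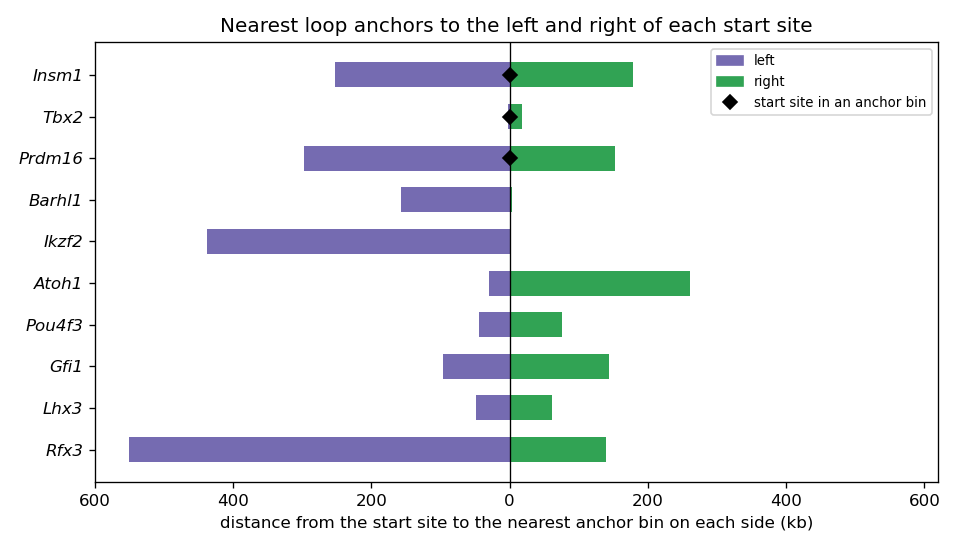
Distance in kb from each start site (0 on the x axis) to the nearest anchor bin on its left and right along the chromosome, for the 10 genes. Black diamonds mark start sites that lie in an anchor bin themselves, whose own bin is not drawn. Tbx2 has anchors at 2.55 and 17.4 kb, and Rfx3 at 551 and 139 kb.

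The 10 genes thus lay in unlike positions relative to loops. The start site was in an anchor at Insm1, Tbx2 and Prdm16, an anchor lay a few kb upstream at Barhl1 and Ikzf2, and Atoh1, Pou4f3, Gfi1 and Lhx3 sat away from the anchors inside 1 loop. In 5 of the 10 genes (Atoh1, Pou4f3, Gfi1, Lhx3 and Ikzf2) the nearest anchors on both sides belonged to the same loop, against 21.2% of all genes. Pou4f3 and Ikzf2 were the only protein-coding gene in the smallest loop that spanned them, 2 of the 8 spanned genes, against 9.5% of the 6118 spanned genes overall. The median sum of the left and right distances was 265 kb in the 10 genes and 310 kb in all genes. The smallest spanning loop had a median distance of 300 kb in the 8 spanned genes and 280 kb in all spanned genes.

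Neighbouring anchor bins were seen at 6 of the 10 genes: Ikzf2, Tbx2, Lhx3, Barhl1, Insm1 and Prdm16. Of the 37 anchor bins, 13 lay next to another anchor bin of the list, against 30.7% of all anchor bins, so this share was near the background. At Insm1, Barhl1, Prdm16 and on the left of Ikzf2 the neighbouring bins were ends of loops that ran the same way, toward the start site or over it. At Tbx2 the neighbouring bins were also ends of loops that ran the same way, to the left of the start site. At Lhx3 and on the right of Ikzf2 they began loops that ran apart.

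The loops themselves lay in the middle of the list by distance and by FDR, with no test of a difference made. Their median distance was 310 kb (110 to 1760 kb) against 280 kb for all loops, and their median FDR was 0.0123 against 0.0113. An FDR below 0.05 was given to 13 of the 19 loops (68.4%), against 78.8% of all loops, and one below 0.01 to 8 (42.1%), against 48.0%. The 6 loops with an FDR above 0.05 were both loops of Atoh1, both of Lhx3, the only loop of Gfi1 and the 300 kb loop of Barhl1. With loops of FDR below 0.05 only, Pou4f3, Barhl1, Insm1, Ikzf2, Tbx2 and Prdm16 kept an anchor within 100 kb, 6 of the 10 genes against 56.9% of all genes. Pou4f3, Insm1, Ikzf2 and Rfx3 were then still spanned, 4 genes against 23.8%.

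**Figure D3:**
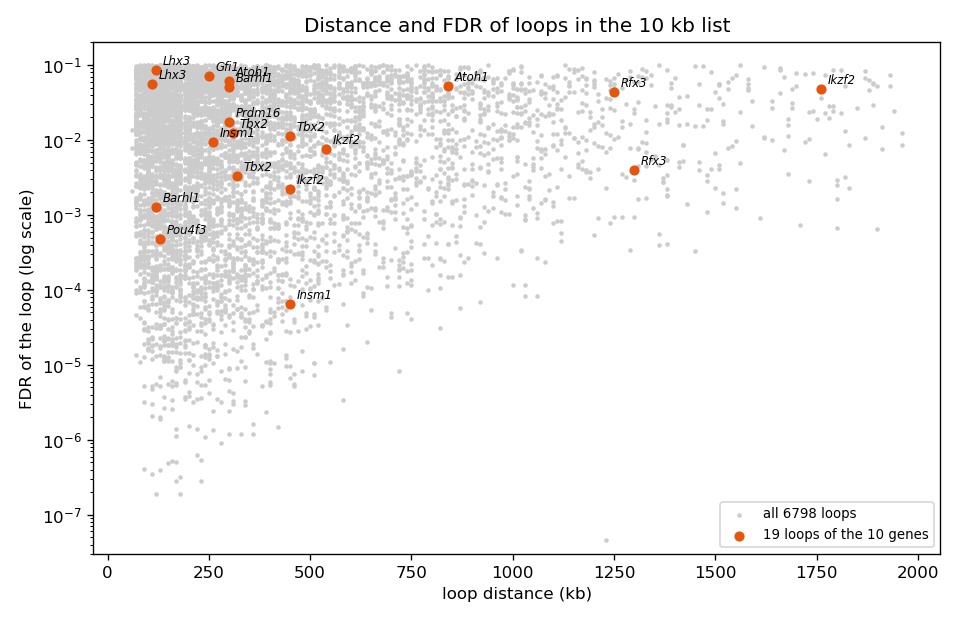
Distance in kb (x axis) and FDR (y axis, log scale) of all 6798 loops in grey and of the 19 loops of the 10 genes in orange, each labelled with its gene. The loops of Atoh1, Lhx3 and Gfi1 lie at the top, above an FDR of 0.05, and the 450 kb loop of Insm1 lies lowest, at 6.44e-05.

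Related genes encode the same kinds of protein, mostly at other loci. Of 21 paralogs, 13 had an anchor within 100 kb, 1 (Pou4f2, the relative of Pou4f3 known from retinal ganglion cells) had its start site in an anchor and 9 were spanned, with a median distance to the nearest anchor of 66.0 kb. The distances varied widely within families. Barhl2, the relative of Barhl1, had its nearest anchor at 402 kb, Gfi1b at 128 kb, Pou4f1 at 342 kb and Lhx4 at 18.3 kb. Mecom, the closest relative of Prdm16, had an anchor 1.99 kb from its start site and was the only protein-coding gene in its spanning loop of 800 kb. Their counts were not wholly separate from those of the 10 genes, since Tbx4 lies next to Tbx2 and inside its rightward loop, and the nearest anchor of Gfi1b was the left anchor of the 300 kb loop of Barhl1.

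Regulators and partners of Atoh1 comprised Notch effectors, Id inhibitors, E proteins and early otic factors such as Eya1, Sox2 and Gata3. All 14 genes of this list had an anchor within 100 kb, 4 (Hes1, Hey1, Id2 and Sox2) had the start site in an anchor and 12 were spanned. Their median distance to the nearest anchor was 4.58 kb. Of the 12 spanned genes, 6 were the only protein-coding gene in their smallest spanning loop, against 9.5% of all spanned genes. These were Eya1, Id2, Id3, Tcf12, Sox2 and Hes1. The loop was of 840 kb at Sox2, which precedes Atoh1 in the prosensory cells. It was of 500 kb at Hes1, a Notch effector that represses Atoh1. Tcf3 and Tcf4, E proteins that pair with Atoh1, were the 2 genes of the list with no spanning loop.

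Of 12 genes expressed in hair cells, 10 had an anchor within 100 kb, 2 (Fgf8, a signal of inner hair cells, and Slc17a8, their glutamate transporter) had the start site in an anchor and 4 were spanned. The median distance to the nearest anchor was 24.3 kb. Myo6, an unconventional myosin of hair cells, had an anchor at 5.03 kb and Myo7a at 30.5 kb. Ocm, which encodes the calcium buffer oncomodulin of outer hair cells, had its nearest anchor at 223 kb. These lists are small and were chosen by name, with earlier results of these data known. Their counts are thus descriptions beside the 62.7%, 7.1% and 28.1% of all genes.

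**Figure D4:**
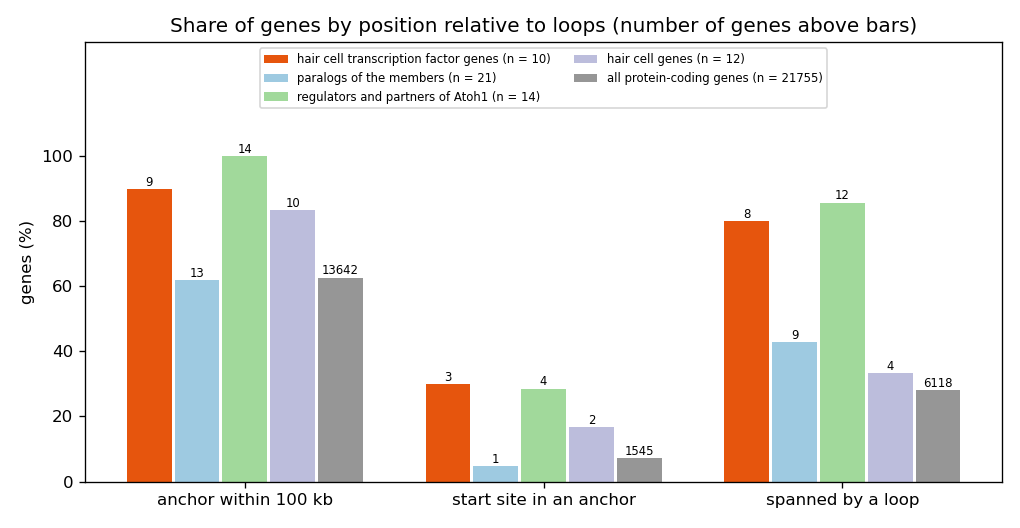
Share of genes in percent (y axis) with an anchor within 100 kb, with the start site in an anchor and with a spanning loop, for the 10 hair cell transcription factor genes, the 3 other lists and all 21755 protein-coding genes, with the number of genes above each bar. Of the 10 genes, 9, 3 and 8 meet the 3 criteria, and of the 14 regulators and partners of Atoh1, 14, 4 and 12.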

How the data were processed

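Chromatin contacts were measured by Micro-C in whole P0 mouse cochlea. Per the study's methods, the authors aligned reads to mm10 with BWA-MEM, paired them with pairtools, merged 4 replicates and called loops with Mustache at 10 kb; versions are not given in the sources used here. The study's text calls replicates 1 to 3 biological and replicate 4 technical. By its read counts replicate 4 is the deepest, with more read pairs than the others together, so most of the merged read pairs come from it. Each loop in the deposited list has a q-value, the FDR (at most 0.1), and a detection scale, the width of smoothing under which Mustache picked it up, handled here as a score column although it does not rate the loop. The counts and the read depth of the contacts are not in it, so the depth behind each loop is unknown.

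Gene positions came from GENCODE vM21 (mm10), with the start site at the 5′ end of the gene, and exons from the protein-coding transcript with the most exons. Distances run to the nearest edge of an anchor bin. A loop spans a gene that lies wholly between the inner edges of its anchors. The genes named were the 10 members and the genes of 3 lists; other genes are those in their anchors or loops, some of which are not reported here. The members and lists were chosen with earlier results of these data known, and the counts of loops shared by both sides, of genes alone in a loop and of neighbouring bins, and the E-box search, were chosen after values were seen. The CTCF consensus is from general knowledge. Scripts used Python 3.11.15, pandas 2.3.3 and numpy 2.4.6 and were tested on simulated data, where 200 of 200 planted cases were recovered. No test was made, since the merged list has no replicate values. Alternatives were stricter FDR limits, the smallest detection scale, windows of 50 and 200 kb, other start sites and definitions of a spanning loop, and 0 or 2 mismatches.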

Additional observations from a re-analysis of the deposited data

How the results depend on the processing

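With an FDR below 0.01 the genes with an anchor within 100 kb went from 9 to 5, the loops with such an anchor from 15 to 6, the genes with the start site in an anchor from 3 to 1 (Insm1), the spanned genes from 8 to 4 and the spanning loops from 10 to 5, and the median distance to the nearest anchor from 16.2 to 91.7 kb. Over all genes the shares also fell, to 41.3% near an anchor, 3.45% in one and 15.1% spanned. With an FDR below 0.05 the spanned genes came to 4 (23.8% of all genes) and the spanning loops to 6. With loops of the smallest detection scale only these were 5 (23.1% of all genes) and 6, and the median distance was 46.4 kb. These settings leave fewer loops in the list. The medians of 91.7 and 46.4 kb have no median of all genes at the same setting beside them. A window of 200 kb gave 26 loops with an anchor near a start site. With 0 mismatches 4 of the 37 anchors (10.8%) held the CTCF consensus, against 13.6% of all anchors and 2.46% of all bins, and 0 loops had facing matches, where only 170 of all loops had matches that could be compared. With 2 mismatches 36 held it, as did 93.7% of all anchors and 81.9% of all bins. Of 44 single-gene values left to compare, 30 moved by no more than 1 bin or kept their count with an FDR below 0.05. With one below 0.01, 23 of the 44 did. The smallest spanning loops of Atoh1, Gfi1, Barhl1 and Lhx3 are not among the 44, since none was left at either limit. No paired analysis was possible because the Micro-C replicates enter the list only as a merged sample, and for the same reason no replicate could be left out. The 10 kb bins and the unknown depth limit these values: a loop that is not listed is not shown to be absent.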
